A study of Arabidopsis thaliana with 36 samples.

Results

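Leaf 6 of the *atx1,3,4* triple mutants at T4 was compared with leaf 6 of WT at T6, so that the mutant leaves were 2 days younger than the WT leaves they were set against. The tested side comprised 6 libraries, A to C of isolate TM1 and A to C of isolate TM2, harvested 29 days after stratification. The other side comprised the 3 WT T6 libraries, harvested 31 days after stratification. These are 9 of the 36 libraries of the series, and they were taken by their labels alone. TM1 and TM2 carry the same insertion alleles in the Col-0 background, *atx1* SALK_149002, *atx3* GABI_128H01 and *atx4* SALK_060156, and descend from different plants of the same cross, so other background mutations may differ between them. WT was Col-0. All plants grew under the same long days, and leaves were taken within the same hours of the morning at each time point. The mutant plants had been chosen as those that bolted together at T0, whereas the WT plants were vegetative, apart from a single WT plant that had bolted at T6. Each group was 1 pool of 10 ground leaves whose powder was split 3 ways to make the libraries. All p-values therefore measure how far libraries of the same pool differ, and variation between plants was not measured. Genotype, bolting, leaf age and day of harvest cannot be told apart in this comparison.

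*ATX1*, *ATX3* and *ATX4* encode SET domain proteins of the trithorax group, which methylate lysine 4 of histone H3, a mark found at transcribed genes. Bolting is the elongation of the inflorescence stem. It follows the floral transition, which repressors such as FLC and its relatives delay and which FT, a mobile protein made in leaves, promotes. In Arabidopsis a leaf later senesces, dismantling its chloroplasts and exporting nitrogen, under NAC and WRKY transcription factors and several hormones. The comparison asks how bolted mutant leaves differ from WT leaves when the WT leaves are the older ones.

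FPKM, the number of reads on a gene scaled by its length and by library depth, was listed for 19437 genes. Depth lay between 4653963 and 7421305 reads in the TM T4 libraries and between 8057074 and 11714474 in the WT T6 libraries. The libraries are 3′ libraries, and dividing their reads by gene length does not make levels of different genes comparable. Single genes are therefore compared with themselves only. The marker sums and the choice of abundant genes below do use FPKM of different genes, so they depend on gene length. Each sum is only compared with the same sum in the other group. Ribosomal RNA loci held 8.92% to 12.0% of the FPKM in TM T4 libraries and 7.00% to 8.39% in WT T6 libraries. Of the marker genes fixed for other tissues, 0 of 12 for flower and inflorescence meristem and 1 of 5 for root were listed. The summed FPKM of 5 mesophyll markers was 8630.5 to 10811 in TM T4 and 12072 to 12799.5 in WT T6. That of 5 phloem and vasculature markers was 123 to 159 in TM T4 and 97.1 to 108 in WT T6. Guard cell markers summed to 31.5 to 37.5 in TM T4 and 33.9 to 39.8 in WT T6. The part of leaf composition in the results below was not tested, and in pooled leaves fewer cells of a type cannot be told from less RNA per cell.

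Each isolate was compared with WT T6 by limma on log2(FPKM + 1), with p-values adjusted over the 19437 genes by the Benjamini-Hochberg method. All log2 fold changes below are on this scale, are TM T4 minus WT T6 unless another pair is named, and understate the change of genes with low FPKM. A gene was past the threshold, and is said to have risen or fallen, when both isolates changed in the same direction, each by 2-fold or more and with an adjusted p under 0.05. A total of 522 genes passed, which is 2.69% of those tested. In TM T4, 372 genes were higher (1.91%) and 150 were lower (0.772%). The genes that rose had a median log2 fold change of 1.45, and those that fell a median of -1.36. Over all genes the median was 0.07 and the median absolute change 0.229, and 11510 genes had a positive mean of both isolates. With median ratio scaling the median over all genes was 0.002. Of the 372 genes, 366 had all 6 TM T4 libraries above all 3 WT T6 libraries, an order found in 13.9% of all genes. Of the 150 genes, 149 had all 6 below all 3, an order found in 8.80% of all genes. The calls were made on these same libraries, which largely fixes both orders, so they are no further support. Higher genes made up 71.3% of the calls. This share was 61.6% with median ratio scaling (310 higher, 193 lower) and 59.1% with quantile normalization (292 higher, 202 lower).

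The same fit gave the comparisons of equal age and the changes over the 2 days on each side. TM T4 against WT T4 put 298 genes past the threshold (1.53%), 154 higher and 144 lower. TM T6 against WT T6 put 197 past it (1.01%), 81 higher and 116 lower. The 2-day step itself gave 139 genes between TM T6 and TM T4 (0.715%), 31 higher and 108 lower at T6, and 208 between WT T6 and WT T4 (1.07%), 68 higher and 140 lower at T6. TM1 T4 against TM2 T4 gave 212 genes (1.09%), 141 higher and 71 lower in TM1. The shifted comparison thus had the highest count of these 6, although the difference between counts was not tested and the comparisons share libraries. For each gene its log2 fold change equals the T4 difference between TM and WT minus the WT change between T4 and T6. It also equals the T6 difference minus the TM change over the same days. These values are therefore given side by side and are not independent.

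**Figure D1:**
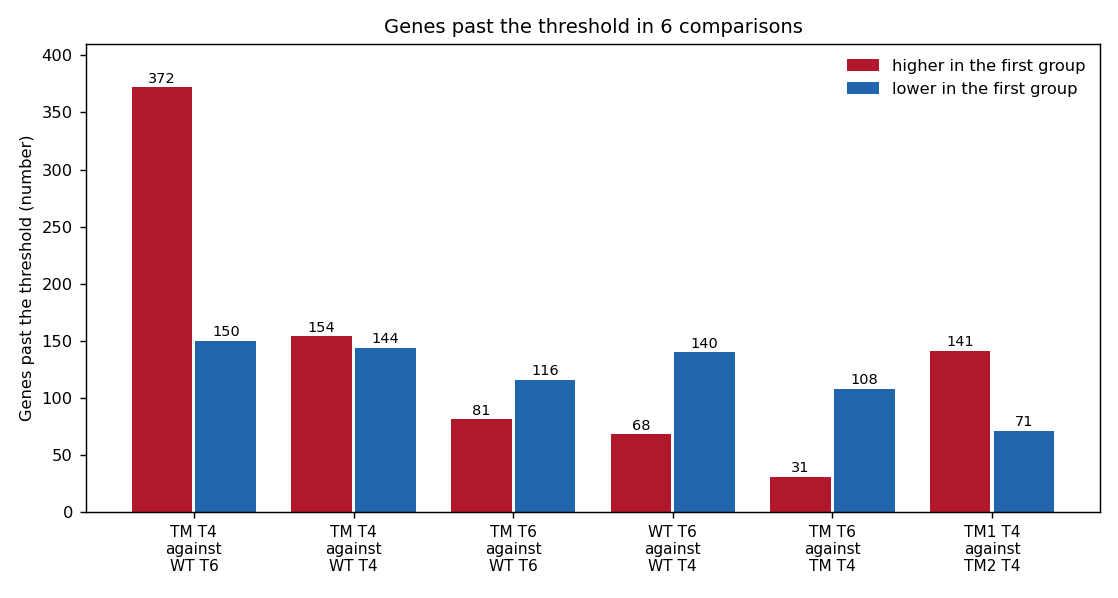
Number of genes past the threshold (vertical axis) in 6 comparisons (horizontal axis), with red bars for genes higher and blue bars for genes lower in the group named first. TM comparisons required both isolates to pass, the other 2 rest on 1 test each. TM T4 against WT T6 has the tallest bar, 372 genes higher, against 154 for TM T4 against WT T4.

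The genes that rose most were led by *MRD1* (AT1G53480), annotated as mto 1 responding down 1. Its FPKM was 20.8, 23.8 and 22.7 in TM1 T4 and 27.4, 24.8 and 26.8 in TM2 T4, against 0.417, 0.137 and 0 in WT T6. The WT values stand for 5, 2 and 0 reads, so that its log2 fold changes, 4.32 for TM1 and 4.54 for TM2 (SE 0.18, limma adjusted p = 2.5e-18 and 4.9e-19), depend on the pseudocount. *MRD1* had a WT change of -0.26 between T4 and T6 (limma adjusted p = 0.491), and TM exceeded WT by 4.17 at T4 and 4.46 at T6. *ERF53* (AT2G20880), an AP2/ERF transcription factor of the DREB group linked to drought, had 106, 126 and 106 FPKM in TM1 T4 and 208, 218 and 199 in TM2 T4, against 11, 9.19 and 12.4 in WT T6. All 6 TM values lay far above the WT values, and TM2 lay above TM1. Relative to WT T6, TM1 differed by 3.27 and TM2 by 4.15 on the log2 scale (SE 0.11, limma adjusted p = 6.3e-21 and 1.2e-23). *ERF054* (AT4G28140), another AP2/ERF factor, averaged 96.9 ± 15.1 FPKM in TM T4 and 8.69 ± 2.27 in WT T6 (SD, n = 6 and 3 libraries), an 11.1-fold difference of means. Its change over the 2 days was -1.18 in TM and -1.06 in WT, and TM exceeded WT by 2.28 at T4.

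The other 9 of the 12 largest rises ranged from 2.63 to 2.97 in mean log2 fold change. They held *ARCK1* (AT4G11890), a receptor-like cytosolic kinase, with 44.0 to 72.4 FPKM in TM T4 against 5.22 to 7.34 in WT T6. *SAG21* (AT4G02380), a gene of the late embryogenesis abundant group that is induced in ageing and stressed leaves, had 256, 233 and 293 FPKM in TM1 T4 and 166, 144 and 154 in TM2 T4, against 28.4, 20.9 and 28.1 in WT T6. *NAC090* (AT5G22380), a NAC transcription factor, had 18.1 to 21.0 FPKM in TM1 T4 and 5.51 to 6.07 in TM2 T4, against 0.557 to 1.22 in WT T6. *RD28* (AT2G37180), a plasma membrane aquaporin, had the reverse order of isolates, with 11.8 to 17.8 FPKM in TM1 T4 and 46.1 to 52.2 in TM2 T4, against 2.75 to 4.44 in WT T6. *AT4G01700*, of the chitinase family, had 51.1 to 73.0 FPKM in TM T4 against 5.48 to 9.17 in WT T6, and *AT2G18193*, of the P-loop nucleoside triphosphate hydrolases, 10.0 to 15.7 against 0.805 to 1.21. *AT4G12490*, of the lipid transfer protein superfamily, had 7.44 to 17.8 FPKM in TM T4 against 0.265 to 0.947 in WT T6, where it had 2 to 7 reads. *NIA1* and *DTX50* are described with their groups below.

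Among the genes that fell most, *MAF5* (AT5G65080, chromosome 5, 25997504 to 26002619), a MADS box repressor of flowering of the FLC clade, had 0 to 2 reads in each TM T4 library. Its FPKM was 0, 0.258 and 0.170 in TM1 T4 and 0.127, 0 and 0.251 in TM2 T4, against 18.1 ± 0.0881 in WT T6 (SD, n = 3 libraries). *AT2G40960*, annotated as a single-stranded nucleic acid binding R3H protein, had 0.145 to 0.990 FPKM in TM T4, from 1 to 9 reads, against 19.3, 21.0 and 24.8 in WT T6. For both genes the difference was also present at equal age. It was -4.00 at T4 and -4.06 at T6 for *MAF5*, and -3.79 at T4 and -3.77 at T6 for *AT2G40960*. *AT2G20670*, a DUF506 protein, averaged 20.1 ± 3.47 FPKM in TM1 T4 and 9.18 ± 1.74 in TM2 T4, against 144 ± 10.6 in WT T6 (SD, n = 3 libraries each). *COR15A* (AT2G42540), which encodes a chloroplast protein that protects membranes in the cold, had 117, 97.2 and 106 FPKM in TM1 T4 and 110.4, 90.6 and 99.1 in TM2 T4, against 584, 602 and 624 in WT T6. Its log2 fold change was -2.49 for TM1 and -2.58 for TM2 (SE 0.15, limma adjusted p = 2.8e-14 and 7.1e-15). *AT1G52000*, a mannose-binding lectin, averaged 11.4 ± 4.65 FPKM in TM T4 and 78.5 ± 2.05 in WT T6 (SD, n = 6 and 3 libraries). *BGLU18* (AT1G52400), a beta glucosidase that can release abscisic acid from its glucose ester, had 8.82 to 9.47 FPKM in TM1 T4 and 24.9 to 30.1 in TM2 T4, against 70.8 to 74.4 in WT T6. *J11* (AT4G36040), a DnaJ chaperone, averaged 26.0 ± 8.46 FPKM in TM T4 and 113 ± 7.13 in WT T6, and *PP2-A13* (AT3G61060), a phloem protein 2 gene, averaged 5.90 ± 2.36 and 29.1 ± 3.29. *AT3G28220*, of the TRAF-like family, *AT3G22142*, of the lipid transfer protein superfamily, *AT2G16367* and *LHCB2.2* made up the rest of the 12, with mean log2 fold changes between -2.48 and -2.17.

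**Figure D2:**
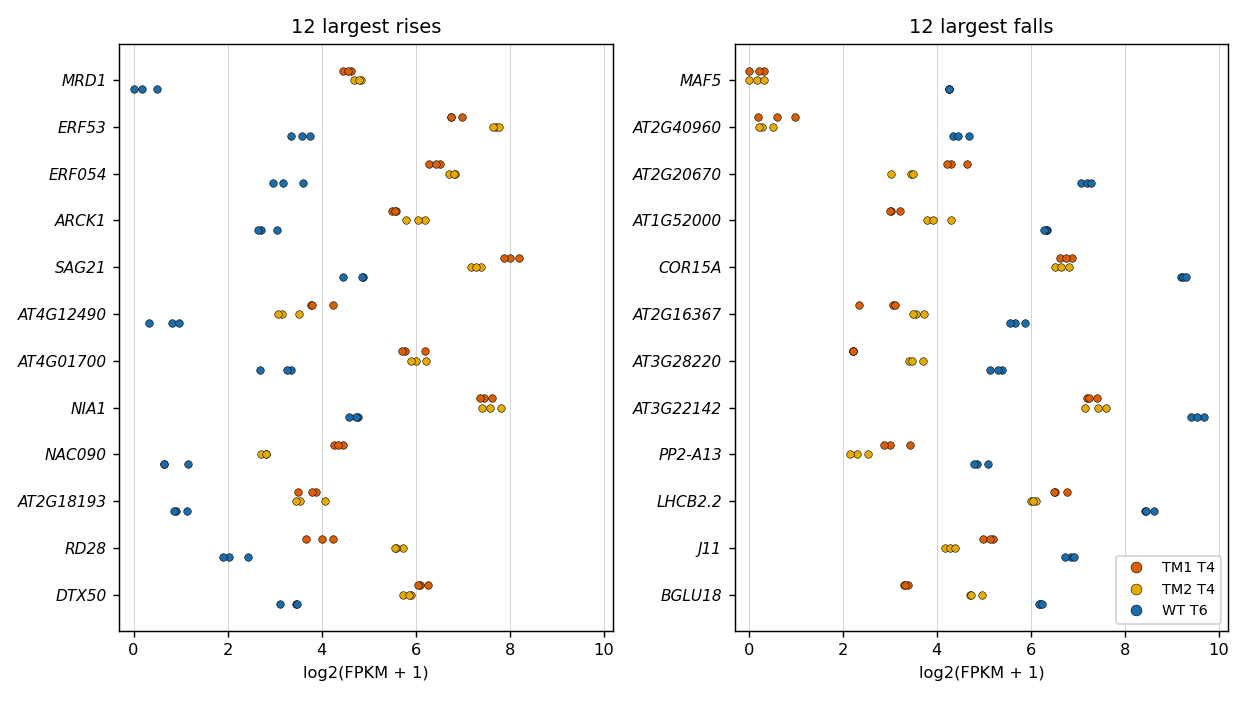
Values of the 12 genes with the largest rise (left) and the largest fall (right) in each of the 9 libraries, as log2(FPKM + 1) on the horizontal axis, with TM1 T4 in dark orange, TM2 T4 in yellow and WT T6 in blue, 3 points each. The genes were chosen among those whose TM T4 and WT T6 libraries do not overlap, and in *NAC090*, *RD28* and *BGLU18* the isolates also lie apart.

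Promoter sequence was read for these 24 genes from the RefSeq TAIR10.1 genome, 250 bases directly before the annotated gene start, and the motifs below were searched in it. A match was found in 11 of the 24. The 5 printed here, 2 of genes that rose and 3 of genes that fell, were picked from these after the matches were seen and show each motif. Capitals mark the matches on either strand to the G-box (CACGTG), the W-box bound by WRKY factors (TTGACC or TTGACT), the DRE bound by DREB and CBF factors (GCCGAC or ACCGAC) and the evening element of clock-regulated genes (AAAATATCT). No matches overlap in these 5. *SAG21* (chr4:1047106-1047355, minus strand) holds 2 W-boxes, *ERF53* (chr2:8985709-8985958, plus strand) a DRE and an evening element, and *AT2G40960* (chr2:17094915-17095164, plus strand) 2 W-boxes. *COR15A* (chr2:17712331-17712580, minus strand) holds 2 DREs and a G-box, and *AT3G28220* (chr3:10523931-10524180, plus strand) 2 G-boxes and a DRE. Of those not printed, *AT4G01700* and *NAC090* hold a W-box, *AT2G18193* a G-box and a W-box, *MAF5* an evening element, *AT1G52000* 2 W-boxes and *PP2-A13* a G-box and a W-box. Each sequence is written 5′ to 3′ along the gene.
*SAG21*: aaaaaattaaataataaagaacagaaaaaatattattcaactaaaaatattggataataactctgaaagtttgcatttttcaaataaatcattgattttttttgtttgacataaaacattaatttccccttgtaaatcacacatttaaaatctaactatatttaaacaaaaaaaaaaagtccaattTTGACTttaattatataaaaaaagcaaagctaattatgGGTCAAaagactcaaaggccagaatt
*AT2G40960*: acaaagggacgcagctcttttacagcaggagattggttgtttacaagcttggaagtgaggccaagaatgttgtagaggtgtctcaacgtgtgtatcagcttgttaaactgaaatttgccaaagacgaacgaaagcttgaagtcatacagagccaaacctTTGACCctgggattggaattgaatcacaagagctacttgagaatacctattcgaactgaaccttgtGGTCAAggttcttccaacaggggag
*ERF53*: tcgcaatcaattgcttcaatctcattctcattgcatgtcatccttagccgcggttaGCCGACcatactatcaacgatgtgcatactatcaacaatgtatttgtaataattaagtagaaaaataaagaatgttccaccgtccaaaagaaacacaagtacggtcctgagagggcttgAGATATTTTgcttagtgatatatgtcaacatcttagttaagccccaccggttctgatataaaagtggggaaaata
*COR15A*: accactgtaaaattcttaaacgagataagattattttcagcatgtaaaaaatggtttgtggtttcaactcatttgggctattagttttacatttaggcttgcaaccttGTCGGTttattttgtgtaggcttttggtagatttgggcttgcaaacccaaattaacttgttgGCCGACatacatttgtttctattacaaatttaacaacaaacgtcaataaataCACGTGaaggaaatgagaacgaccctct
*AT3G28220*: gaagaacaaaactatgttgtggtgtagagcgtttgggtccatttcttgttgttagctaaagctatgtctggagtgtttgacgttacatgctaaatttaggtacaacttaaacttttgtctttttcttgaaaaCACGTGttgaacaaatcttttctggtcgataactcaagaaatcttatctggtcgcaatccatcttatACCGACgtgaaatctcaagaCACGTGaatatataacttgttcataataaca
A W-box stood in 165 of the 372 promoters of genes that rose (44.4%), in 41 of the 150 of genes that fell (27.3%) and in 5397 of 19331 promoters of listed genes (27.9%). The evening element stood in 10 promoters of genes that rose (2.69%), in 9 of genes that fell (6.00%) and in 2.54% of all. The G-box stood in 7.53% and 7.33% of the promoters of genes that rose and fell and in 7.44% of all. The DRE stood in 8.6% and 8.00% and in 7.99% of all. A match says only that these letters are in the window, and no test was made of these shares.

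*ATX1* had 2.87 to 3.58 FPKM in TM T4 and 3.25 to 3.68 in WT T6, and *ATX3* 5.45 to 6.32 and 5.37 to 6.30. *ATX4* had 2.43 to 3.83 FPKM in TM T4 and 3.83 to 4.13 in WT T6, all 6 below all 3, with -0.48 for TM1 and -0.18 for TM2 on the log2 scale (limma adjusted p = 0.0411 and 0.502). At equal age TM minus WT was -0.50 at T4 and -0.48 at T6 for *ATX1*, 0.39 and 0.18 for *ATX3*, and -0.57 and -0.19 for *ATX4*. Of these, *ATX4* in TM1 at T4 had an adjusted p under 0.05 (-0.72, limma adjusted p = 0.00263). The position of reads along a gene cannot be read from these values, so these values are no check of the insertions. None of the 9 listed genes for histone H3 methyltransferases was past the threshold (median log2 fold change -0.00). Of all genes 2.69% were past it, so a list this short may well hold none. The member with the largest change, *SDG4* (AT4G30860), had 0.856 to 1.69 FPKM in TM T4 and 0.296 to 0.437 in WT T6, with log2 fold changes of 0.52 and 0.85 (limma adjusted p = 0.104 and 0.00466). At T4 it ran the other way, with -0.80 in TM1 and -0.47 in TM2 against WT T4 (limma adjusted p = 0.0123 and 0.165), and its WT change between T4 and T6 was -1.32 (limma adjusted p = 1.1e-04).

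Of the FLC clade repressors and SVP, 3 of 7 fell and none rose, with a list median of -0.86. Of all genes 0.772% fell and 1.91% rose. *FLC* (AT5G10140), the central repressor of this clade, had 0 reads in 4 TM T4 libraries and 1 and 4 reads in the others, 0 to 0.506 FPKM, against 2.84, 2.65 and 3.26 FPKM in WT T6. *MAF4* (AT5G65070) had 0 to 0.584 FPKM in TM T4, from 0 to 3 reads, against 3.12, 3.25 and 5.29 in WT T6. With so few reads in TM T4 the sizes of these falls depend on the pseudocount, and *MAF4* and *MAF5* are neighbouring relatives between which reads may be shared. *SVP*, which acts with FLC, had 91.8 to 122 FPKM in TM T4 and 184 to 204 in WT T6, with log2 fold changes of -0.73 and -1.0, short of the threshold. *MAF2* and *MAF3* had medians within the range of WT.

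On the promoting side, *FT* (AT1G65480), the mobile florigen, rose, with 14.1, 13.1 and 11.1 FPKM in TM1 T4 and 17.8, 11.2 and 13.7 in TM2 T4, against 6.58, 5.89 and 3.63 in WT T6. Its log2 fold changes were 1.14 and 1.27 (SE 0.26, limma adjusted p = 0.00178 and 4.7e-04), and without WT T6 library C they were 0.92 and 1.05, which is short of 2-fold in TM1. Of the other photoperiod genes, *CIB1* (AT4G34530), a basic helix-loop-helix factor known to promote *FT* transcription in blue light, fell, with 5.81 to 11.1 FPKM in TM T4 against 27.7 to 31.1 in WT T6. *CIB5*, its relative, had log2 fold changes of -1.0 and -0.62 (limma adjusted p = 2.6e-04 and 0.0219). In this list 1 of 11 rose and 1 fell (9.09% each, against 1.91% and 0.772% of all genes). Among flower-promoting MADS box genes 3 of 8 rose (37.5%) and none fell, and all 8 had a positive mean log2 fold change (median 0.70). Of all 19437 genes 11510 had a positive mean. *SEP3* (AT1G24260), a partner of the floral organ proteins, had 6.34, 9.36 and 8.54 FPKM in TM1 T4 and 8.03, 7.28 and 6.43 in TM2 T4, against 0.723, 0.667 and 0.215 in WT T6. *FUL* (AT5G60910), which acts in the meristem and in leaves, averaged 12.4 ± 2.97 FPKM in TM T4 and 3.13 ± 0.566 in WT T6 (SD, n = 6 and 3 libraries). *SEP1* (AT5G15800) had 1.42 to 2.54 FPKM in TM T4, from 13 to 24 reads, and 0.0864 to 0.238 in WT T6, from 1 to 4 reads. *SOC1*, which integrates flowering signals, had log2 fold changes of 0.48 and 0.22 (limma adjusted p = 2.2e-04 and 0.0934), with 5 of 6 TM T4 libraries above WT T6.

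For several of these regulators the WT change over the 2 days was small beside the shifted difference. The WT change between T4 and T6 was 0.17 for *FT*, 0.29 for *SEP3*, 0.15 for *FUL*, -0.02 for *CIB1* and 0.08 for *MAF5*, with adjusted p of at least 0.685. The equal-age differences at T4 were 1.37 for *FT*, 2.79 for *SEP3*, 1.83 for *FUL* and -1.80 for *CIB1*, beside shifted values of 1.2, 2.5, 1.67 and -1.78. Of SPL factors and AP2-like or TEM repressors, 2 of 15 fell and none rose (13.3% lower, against 0.772% of all genes). *TEM2* (AT1G68840), a repressor of *FT*, averaged 8.58 ± 0.869 FPKM in TM1 T4 and 3.40 ± 1.14 in TM2 T4, against 19.7 ± 1.28 in WT T6 (SD, n = 3 libraries each). *TOE3* (AT5G67180), an AP2-like repressor, had 2.27 to 4.14 against 6.8 to 9.04, and was short of 2-fold in TM1 (-0.95) without TM1 T4 library C.

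Genes for the chlorophyll-binding antenna proteins of the photosystems were lower in TM T4. Of the 22 genes for antenna proteins and Rubisco, 5 fell and none rose (22.7% lower, against 0.772% of all genes). All 5 were antenna genes, and the 17 antenna genes had a median log2 fold change of -0.96. In 16 of 17 all 6 TM T4 libraries lay below all 3 WT T6 libraries. That order was found in 8.80% of all genes. The 5 genes for the small subunit of Rubisco and for its activase had a median of 0.17. *LHCB2.2* (AT2G05070) had 90.4, 108 and 89.2 FPKM in TM1 T4 and 63.2, 67.5 and 65.2 in TM2 T4, against 344, 389 and 347 in WT T6. Its log2 fold changes were -1.90 and -2.44 (SE 0.14, limma adjusted p = 1.3e-12 and 2.1e-15). *LHCB2.1* (AT2G05100) averaged 52.1 ± 12.2 FPKM in TM T4 and 196 ± 10.6 in WT T6, and *LHCB2.3* (AT3G27690) 31.6 ± 7.57 and 138 ± 6.05 (SD, n = 6 and 3 libraries). *LHCB3* (AT5G54270) had 363 to 559.9 FPKM in TM T4 and 1086 to 1177 in WT T6, and *LHCB4.2* (AT3G08940) 68.3 to 93.0 and 173 to 235. The 3 *LHCB2* genes are near-identical copies between which reads may be shared. The mesophyll marker sum, in which antenna and Rubisco genes are counted too, lay lower in TM T4, as given above, and its part in this result was not tested.

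The antenna genes also moved with time. The change of *LHCB2.2* between T4 and T6 was 1.26 in WT (limma adjusted p = 8.2e-08) and 1.03 and 0.87 in TM1 and TM2 (limma adjusted p = 1.0e-06 and 2.3e-05). At equal age TM minus WT was -0.91 at T4 and -1.22 at T6. For the whole list the median was -0.75 in the shifted comparison, -0.48 at T4 and -0.39 at T6, and 0.30 and 0.34 for the 2-day change in WT and in TM.

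Of 15 genes for nitrogen uptake, reduction and remobilisation 4 rose, none fell and 11 did not pass, with a list median of 0.23. The share that rose was 26.7%, against 1.91% of all genes. *NIA1* (AT1G77760), 1 of the 2 nitrate reductase genes, had 173, 196 and 163 FPKM in TM1 T4 and 170.3, 225 and 189.6 in TM2 T4, against 26.5, 25.7 and 23.1 in WT T6. Its mean was 7.42-fold that of WT T6, with log2 fold changes of 2.77 and 2.90 (SE 0.14, limma adjusted p = 1.3e-16 and 2.9e-17). *NIA2* (AT1G37130) had 337 to 443 FPKM in TM T4 and 90.8 to 104 in WT T6. *NIR1* (AT2G15620), nitrite reductase, averaged 267 ± 35.7 FPKM in TM T4 and 108 ± 3.93 in WT T6, and *ASN2* (AT5G65010), asparagine synthetase, 90.1 ± 8.71 and 27.3 ± 1.48 (SD, n = 6 and 3 libraries). The 4 genes were also higher in TM at equal age, by 2.3, 1.34, 0.56 and 1.07 at T4 for *NIA1*, *NIA2*, *NIR1* and *ASN2*. Their WT changes between T4 and T6 were -0.54, -0.56, -0.73 and -0.62 in the same order (limma adjusted p = 0.00856, 1.5e-04, 2.9e-06 and 9.5e-05), all short of 2-fold. No gene of the list for a nitrate transporter, a glutamine synthetase or a glutamate dehydrogenase passed. *GLN2*, chloroplast glutamine synthetase, had 362 to 511 FPKM in TM T4 and 403 to 438 in WT T6.

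Senescence genes split. Of 24 senescence NAC and WRKY factors 3 rose and none fell (median 0.15, 12.5% higher, against 1.91% of all genes). In 5 members all 6 TM T4 libraries lay above all 3 WT T6 libraries, and in 5 all 6 lay below. Over all genes these orders were found in 13.9% and 8.80%. *WRKY28* (AT4G18170) had 5.23 to 10.0 FPKM in TM T4 and 1.4 to 1.93 in WT T6, *WRKY48* (AT5G49520) 9.83 to 15.0 and 2.81 to 3.46, and *WRKY6* (AT1G62300), a regulator of senescence and defence genes, 14.8 to 16.7 and 5.29 to 7.21. *ORE1* (AT5G39610), a NAC activator of senescence, had 6.60 to 7.96 FPKM in TM1 T4 and 1.64 to 4.01 in TM2 T4, against 7.55 to 8.89 in WT T6, with log2 fold changes of -0.16 and -1.31 (limma adjusted p = 0.756 and 1.9e-04). *NAP* (AT1G69490), another NAC activator of senescence, had 8.30 to 11.1 FPKM in TM1 T4 and 2.2 to 2.84 in TM2 T4, against 14.7 to 17.0 in WT T6, with log2 fold changes of -0.63 and -2.29 (limma adjusted p = 0.0409 and 1.1e-09). *RD26* (AT4G27410), a NAC factor of abscisic acid responses, had 61.9 to 73.3 FPKM in TM1 T4 and 38.3 to 42.3 in TM2 T4, against 131 to 134 in WT T6, with -0.97 and -1.68 (limma adjusted p = 1.7e-10 and 2.3e-16), short of 2-fold in TM1. At equal age TM minus WT was -1.94 at T4 and -1.54 at T6 for *NAP*, and -1.39 and -1.16 for *RD26*. *WRKY75* had 1 read in each of 3 TM T4 libraries and was listed at 0 in the other 3 and in WT T6. *WRKY45* had log2 fold changes of 0.59 and 1.35 (limma adjusted p = 0.12 and 1.9e-04).

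Of 16 listed senescence markers 2 rose, *SAG21* and *SAG14*, and 1 fell, *ASN1* (median 0.14). These are 12.5% and 6.25%, against 1.91% and 0.772% of all genes. *SAG14* (AT5G20230), a blue copper-binding protein, had 131 to 147 FPKM in TM1 T4 and 78.9 to 87.8 in TM2 T4, against 28.9 to 38.2 in WT T6. *ASN1* (AT3G47340), an asparagine synthetase induced by darkness and sugar shortage, had 0.315 to 1.4 FPKM in TM T4 and 3.87 to 5.27 in WT T6. *SAG13* had 0.471 to 1.19 FPKM in TM T4, from 3 to 12 reads, and 0 to 0.152 in WT T6, from 0 to 2 reads, and its log2 fold changes of 0.53 and 0.91 were short of 2-fold. With a pseudocount of 0.1 they were 2.00 and 2.79 and the gene was past the threshold. *SEN1* had log2 fold changes of -0.39 and -0.48 here, whereas its T6 difference between TM and WT was 1.03. *SAG20* had 0.44 and 0.39 (limma adjusted p = 0.00332 and 0.00748). None of the 11 genes of chlorophyll breakdown was past the threshold, which 2.69% of all genes passed, so a list this short may hold none. The largest change was that of *CLH1*, a chlorophyllase, with log2 fold changes of -0.84 and -0.27 (limma adjusted p = 7.3e-06 and 0.154).

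Genes of salicylic acid signalling mostly lay higher, with 12 of 13 listed members positive and a median of 0.90. Over all 19437 genes 11510 were positive and the median was 0.07. Only 2 of the listed members rose past the threshold (15.4%, against 1.91% of all genes). *NIMIN2* (AT3G25882), which binds the salicylic acid receptor NPR1, had 74.4, 51.8 and 54.3 FPKM in TM1 T4 and 43.0, 32.5 and 26.5 in TM2 T4, against 10.7, 14.2 and 17.9 in WT T6. Its adjusted p in TM2, 0.00759, became 0.056 without TM2 T4 library A and 0.0568 without WT T6 library A. *EDS1* (AT3G48090), a lipase-like protein upstream of salicylic acid, had 23.1 to 39.8 FPKM in TM T4 and 11.1 to 14.5 in WT T6. Its log2 fold change in TM2, 1.0, was 0.92 with median ratio scaling and 0.96, 0.92 and 0.89 without TM2 T4 library B, TM2 T4 library C and WT T6 library C. For this list the median was 0.34 at T4 and 0.02 at T6, and -0.31 and -0.67 for the 2-day change in WT and in TM. *NIMIN2* differed by 0.16 at T4 and by -0.05 at T6 and fell in WT by 1.45 between T4 and T6 (adjusted p = 0.00382). Of 17 jasmonate genes 1 fell and none rose (5.88% lower from this 1 gene, against 0.772% of all genes). This was *JAZ6* (AT1G72450), a repressor of jasmonate responses, with 10.8 to 14.5 FPKM in TM T4 and 25.3 to 29.9 in WT T6, close to the 2-fold limit. It was short of that limit without TM1 T4 library C, TM2 T4 library B or WT T6 library A, where the smaller log2 fold changes were -0.99, -0.95 and -1.0.

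Of 22 cold, drought and abscisic acid response genes 3 rose and 4 fell (median -0.49). Those that rose were *ERF054*, *DTX50* and *DEAR1*. *DTX50* (AT5G52050), an efflux carrier of abscisic acid, had 76.0, 67.4 and 65.4 FPKM in TM1 T4 and 52.3, 58.3 and 56.6 in TM2 T4, against 10.0, 7.71 and 10.1 in WT T6. *DEAR1* (AT3G50260), a DREB factor, averaged 16.3 ± 1.98 FPKM in TM T4 and 6.49 ± 1.31 in WT T6 (SD, n = 6 and 3 libraries), and was short of 2-fold in TM1 (0.95) without WT T6 library B. With a pseudocount of 0.1 its adjusted p was 0.118 in TM1 and 0.0523 in TM2 by limma, at log2 fold changes of 1.21 and 1.44. Those that fell were *COR15A*, *COR15B*, *KIN1* and *RD22*. *COR15B* (AT2G42530), the neighbour and close relative of *COR15A*, had 316 to 521 FPKM in TM T4 and 1169 to 1339 in WT T6. *RD22* (AT5G25610), a drought-induced BURP domain protein, had 303 to 376 FPKM in TM T4 and 696 to 794 in WT T6, and *KIN1* 5.33 to 11.9 and 19.3 to 29.4. *COR47*, *ERD10* and *RD29B* had means within 0.16 of WT on the log2 scale. *COR15A* rose in WT by 1.03 between T4 and T6 (adjusted p = 1.6e-05) and was lower in TM at equal age too, with -1.5 at T4 and -2.11 at T6.

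None of 12 core clock genes was past the threshold, which 2.69% of all genes passed, but the list median was -0.62. Of the 12, 2 had a positive mean log2 fold change, against 11510 of all 19437 genes. In 1 of 12 all 6 TM T4 libraries lay above all 3 WT T6 libraries. In 8 of 12 all 6 TM T4 libraries lay below all 3 WT T6 libraries. That order was found in 8.80% of all genes. *GI* (AT1G22770), a clock gene that acts upstream of *FT*, had 10.7, 11.6 and 9.78 FPKM in TM1 T4 and 6.54, 8.86 and 8.41 in TM2 T4, against 21.4, 23.0 and 20.3 in WT T6. Its log2 fold changes were -0.95 and -1.34 (SE 0.13, limma adjusted p = 1.8e-06 and 1.8e-09), and it passed the threshold with median ratio scaling (-1.03 and -1.42). *PRR7* had 45.4 to 55.9 FPKM in TM1 T4 and 31.5 to 34.5 in TM2 T4, against 78.9 to 89.5 in WT T6. At equal age the list medians were -0.10 at T4 and -0.18 at T6, and the 2-day change had medians of 0.34 in WT and 0.37 in TM. The hour of each harvest within the morning is not given in the labels, and its part in these values was not tested.

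Among leaf growth and cell cycle genes 3 of 14 rose (21.4%, against 1.91% of all genes) and none fell, but the list median was -0.20. Of the 14, 4 had a positive mean log2 fold change, and in 5 all 6 TM T4 libraries lay below all 3 WT T6 libraries. Over all genes 11510 of 19437 had a positive mean, and that order was found in 8.80%. *EXPA10* (AT1G26770) and *EXPA5* (AT3G29030) encode expansins, which loosen cell walls. Of 13 listed genes with an EXPA symbol these 2 rose and 1 fell, *EXPA11*, which is not in the fixed list (23.1% called, against 2.69% of all genes). *EXPA10* had 4.43 to 7.71 FPKM in TM1 T4 and 11.4 to 16.2 in TM2 T4, against 0.887 to 1.86 in WT T6, and *EXPA5* 12.5 to 16.4 in TM T4 against 5.49 to 7.20. *EXPA5* was short of 2-fold in TM1, with 0.93 under median ratio scaling and 0.92 and 0.91 without TM1 T4 library C and WT T6 library C. *PSK4* (AT3G49780), a precursor of the growth peptide phytosulfokine, had 138 to 198 FPKM in TM T4 and 62.7 to 78.2 in WT T6. *ANT*, an AP2-like growth factor, had 6.11 to 9.20 and 7.11 to 8.15. Of 13 aliphatic glucosinolate genes 2 fell (15.4%, against 0.772% of all genes). *MAM3* (AT5G23020), which elongates methionine side chains, had 0.119 to 1.19 FPKM in TM T4, from 1 to 15 reads, and 6.03 to 6.76 in WT T6, and *MYB76* (AT5G07700), an activator of the pathway, had 1.72 to 3.38 and 6.71 to 7.99. *TPS8* (AT1G70290), a class II trehalose phosphate synthase gene, fell, with 77.1 to 116 FPKM in TM T4 and 208 to 230.2 in WT T6. Of 14 genes for trehalose, starch and sugar responses no other was past the threshold (7.14% lower from this 1 gene, against 0.772% of all genes). Its log2 fold change in TM1 without TM1 T4 library C was -1.0, just short of it.

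With 2.69% of all genes past the threshold, lists this short may well hold none. None of 7 flavonoid and anthocyanin genes, 8 type-A cytokinin response regulators and 7 heat shock genes passed. Their largest changes were those of *PAP1*, which was listed at 0 in 5 of 6 TM T4 libraries and at 0.374 to 0.951 in WT T6, of *ARR6*, with log2 fold changes of -0.52 and -1.67 (limma adjusted p = 0.255 and 7.2e-05), and of *HSFA7A*, with 0.47 and 0.73 (limma adjusted p = 0.198 and 0.0294). The bolting-associated genes, a list that the study chose in part on these libraries and which is not independent evidence of direction, included 59 that rose, 22 that fell and 317 that did not pass (14.8% higher and 5.53% lower, against 1.91% and 0.772% of all genes), with a median of 0.05. Of the 26 genes named in connection with this experiment 9 rose and 4 fell (34.6% and 15.4%, against the same shares of all genes). The paper also drew these in part from these libraries, so they are no independent evidence either. *BFT*, *FPA*, *MED18* and *NIT2* among the 26 had adjusted p of at least 0.12 in both isolates.

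**Figure D3:**
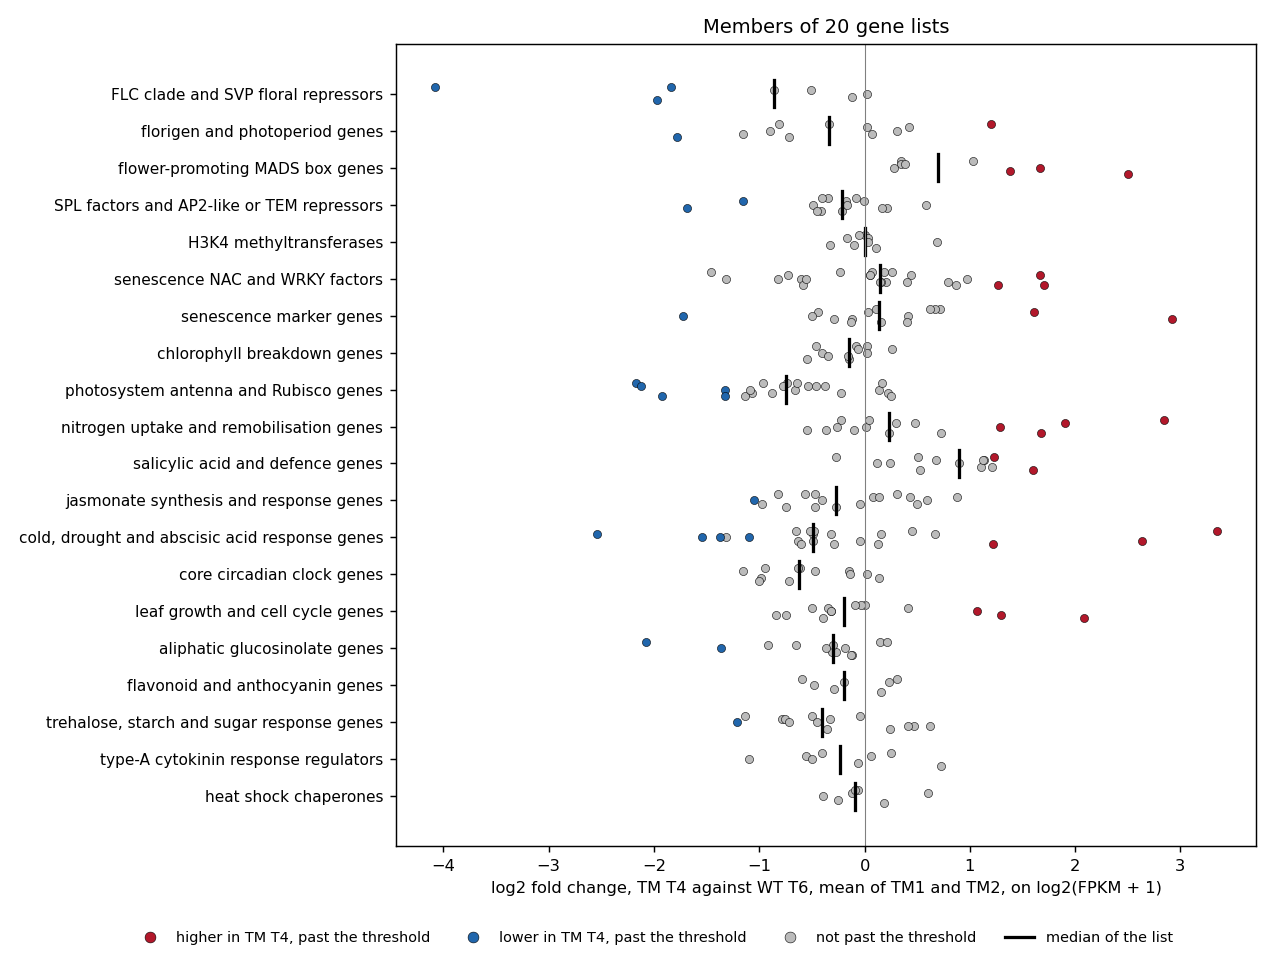
Mean log2 fold change of TM1 and TM2 at T4 against WT T6 (horizontal axis) for each listed member of 20 gene lists (rows), red for genes past the threshold and higher, blue for genes past it and lower, gray for the others, with a black bar at the median of each list. Medians lie between -0.86 for the FLC clade and SVP and 0.90 for salicylic acid genes, against 0.07 over all genes.

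Of the genes past the threshold with the highest mean FPKM, *AT5G42530*, of unknown function, had 7995 to 13867 FPKM in TM T4 and 4076 to 4479 in WT T6. *AT2G25510*, also uncharacterized, had 1783 to 2491 and 666 to 842. *LURP1* (AT2G14560), a gene induced by an oomycete pathogen, had 662, 653 and 625 FPKM in TM1 T4 and 579, 535 and 539 in TM2 T4, against 251, 239.9 and 262 in WT T6. *AT4G20830*, of the berberine bridge enzyme family, had 484 to 695 and 195 to 210.0. Among those that fell, *ELP* (AT1G12090), an extensin-like protein, had 202 to 286 FPKM in TM T4 and 602 to 666 in WT T6, besides *COR15B*, *LHCB3* and *RD22*.

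Some of the named genes are set out here by their equal-age differences and WT changes. No cutoff was set, and no count was made over all genes past the threshold. *AT2G25510* rose by 1.5 in the shifted comparison, but its difference at equal age was 0.04 at T4 and -0.18 at T6, and it fell between T4 and T6 by 1.45 in WT and by 1.62 and 1.74 in TM1 and TM2 (limma adjusted p = 1.0e-08, 2.4e-10 and 1.4e-10). *LURP1* had 1.25 in the shifted comparison, 0.08 at T4, -0.51 at T6 and -1.17 for the WT change. *EXPA5* had 1.07, 0.05 and -0.31, with -1.02 for the WT change, and *AT5G42530* had 1.32, 0.29 and -0.01, with -1.04. By contrast *MRD1*, *MAF5*, *SEP3*, *FT*, *CIB1* and *PSK4* had WT changes between -0.26 and 0.29. Between these, *SAG21* had 2.92 in the shifted comparison, 1.78 at T4 and -1.15 for the WT change, *NAC090* 2.76, 1.23 and -1.53, and *AT4G01700* 2.87, 1.62 and -1.25.

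**Figure D4:**
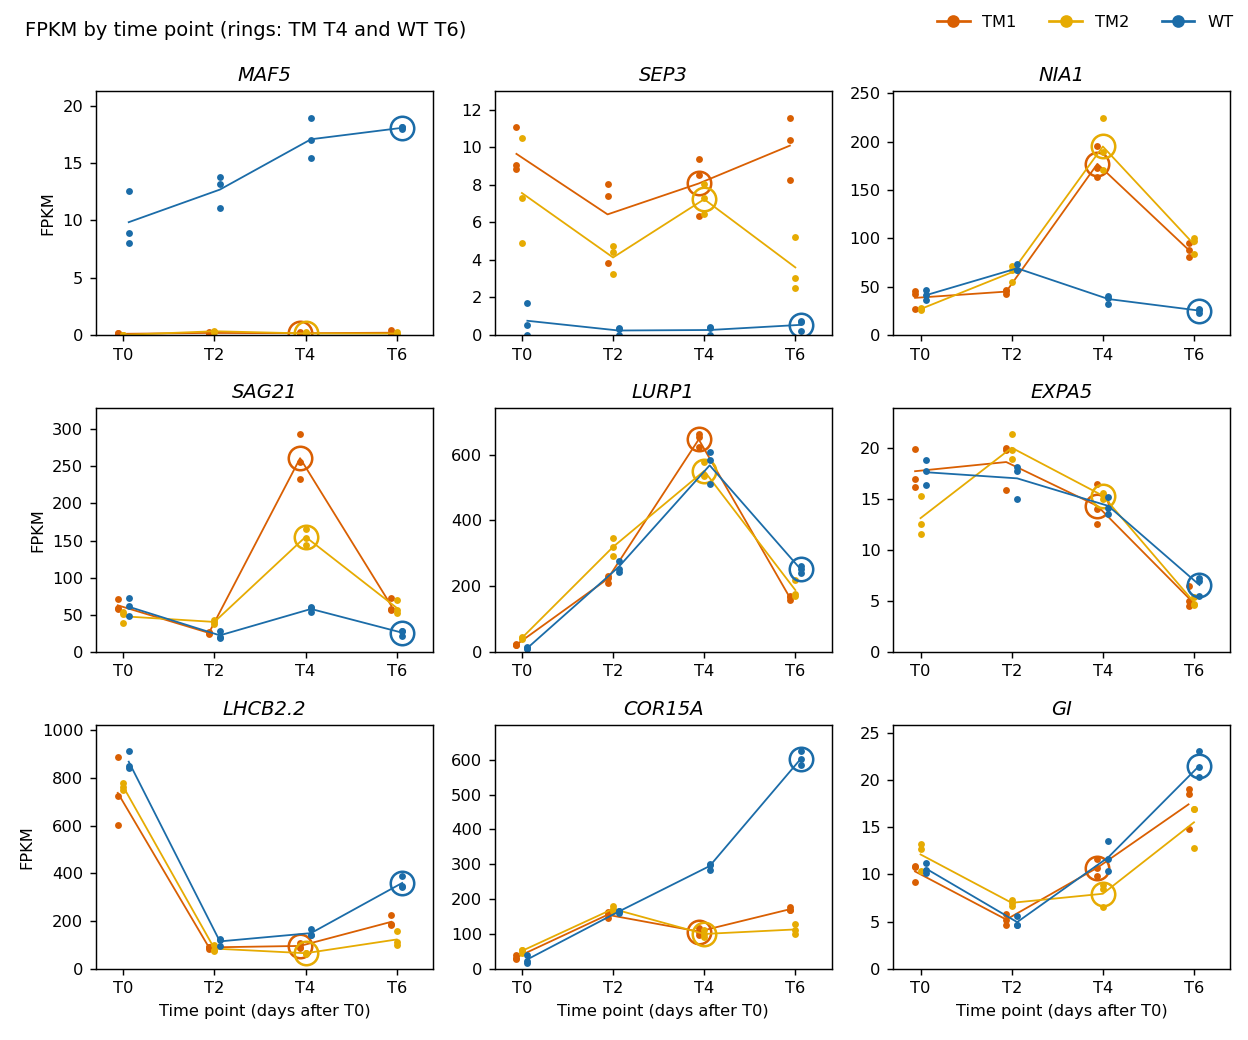
FPKM of 9 genes (vertical axes, each from 0) in all libraries of TM1, TM2 and WT at T0, T2, T4 and T6 (horizontal axes), with lines through the means of 3 libraries and rings on the compared groups, TM T4 and WT T6. *MAF5* and *SEP3* keep TM and WT apart at every time point, *LURP1* and *EXPA5* have lower means at T6 than at T4 in TM1, TM2 and WT, and *COR15A* reaches 603 in WT at T6.

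TM1 and TM2 were not alike in all of these genes. Of the 372 genes that rose, 73 differed between TM1 T4 and TM2 T4 at an adjusted p under 0.05, 32 of them higher in TM1, and of the 150 that fell 28 differed, 23 of them higher in TM1. Taken singly, TM1 had 625 genes higher and 225 lower than WT T6 by the same limits, and TM2 had 592 higher and 405 lower. By the adjusted p alone, 23 of the 83 named genes differed between the isolates. The counts by adjusted p alone have no 2-fold limit, unlike the count of TM1 T4 against TM2 T4 given earlier. The share of all genes at that limit is not given here. Whether these genes differ between the isolates more often than other genes therefore cannot be told. TM1 minus TM2 was -1.65 for *RD28*, -1.45 for *BGLU18* and 1.58 for *NAC090* on the log2 scale (limma adjusted p = 8.4e-08, 8.3e-09 and 2.0e-05). For the named genes past the threshold these differences were smaller than the distance of either isolate from WT T6, except in *TEM2*, with -1.11 for TM1 against WT T6 and 1.15 for TM1 against TM2, and *BGLU18*, with -1.4 for TM2 against WT T6 and -1.45 for TM1 against TM2. Whether these differences come from background mutations, from the pools or from the libraries cannot be told apart with 1 pool per isolate.

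**Figure D5:**
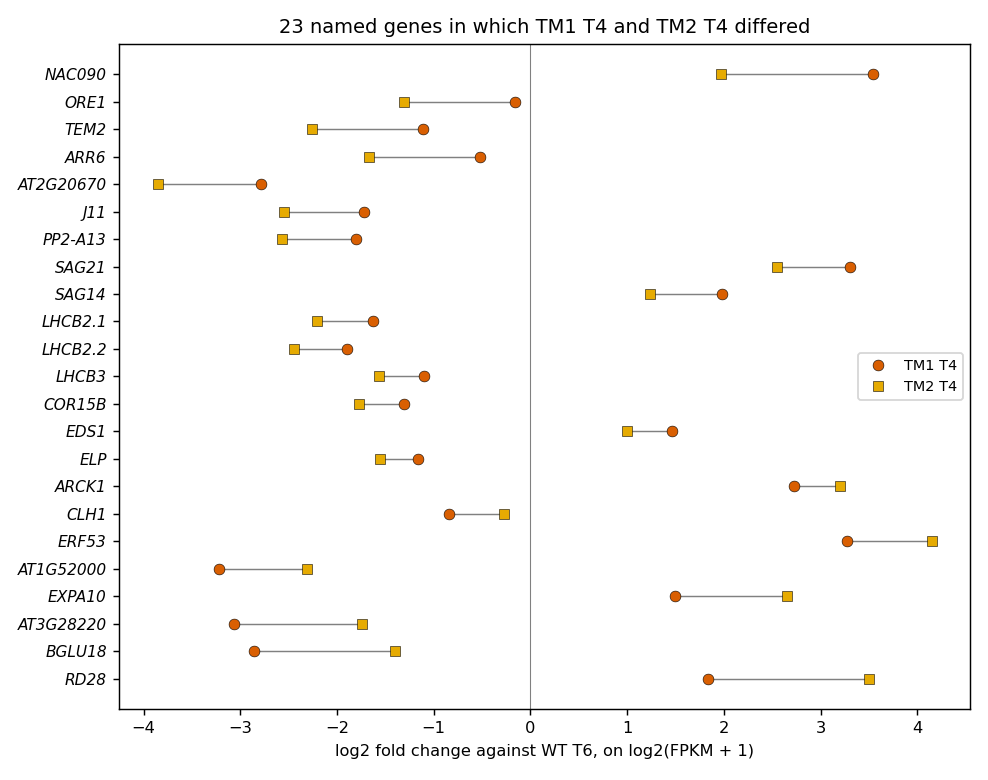
Log2 fold change against WT T6 (horizontal axis) in TM1 T4 (circles) and TM2 T4 (squares) for the 23 named genes (rows) in which the isolates differed, ordered by the TM1 minus TM2 difference. Both isolates lie on the same side of 0 in every gene shown, and they lie farthest apart in *RD28*, at 1.84 in TM1 and 3.50 in TM2.

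Leaving out each of the 9 libraries in turn took 8 of the 61 past-threshold calls among named genes away at least once, those of *FT*, *TOE3*, *DEAR1*, *NIMIN2*, *EDS1*, *JAZ6*, *EXPA5* and *TPS8*, as given with each gene.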

How the data were processed

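RNA was from leaf 6, and the directional 3′ libraries were made by BrAD-seq. The authors used Rsubread for alignment to TAIR10, NOISeq to make the FPKM values and HTSFilter to remove weakly expressed genes; the versions are not given in the sources used here. The deposited FPKM values of 36 libraries, in 12 groups of 3, were taken as log2(FPKM + 1) for 19437 genes, and 0 columns were left unmapped. Of the gene IDs, 19332 had a RefSeq name and 105 did not. Whole reads were recovered from the FPKM steps within a tolerance of 0.01 (largest distance 0.000167, 100% of values whole), and gave the depths. Counting of these reads covers counting error only. The fit was limma 3.58.1 in R 4.3.3 with 12 group means and a trended prior, and p-values were adjusted over all genes within each contrast. On simulated data for this comparison, with 19437 genes, 196 of 200 changed genes were recovered with 0 false calls. The simulated noise was independent and normal, with the spread between libraries of the same pool. All groups were equal apart from the changed genes, and genes of low FPKM were not among those changed. It therefore says nothing of variation between plants, of a shift in scaling between groups or of genes with few reads. An exact permutation test over 84 arrangements was run for named genes. Most of these were chosen as past the threshold, which largely fixes its outcome, so its p-values are not used.

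Named genes were the 12 largest changes in each direction without overlap, the 4 most abundant called genes in each direction, *ATX1*, *ATX3* and *ATX4*, the genes of the paper on this experiment, and up to 4 called members of each other list, or its largest change where none was called. Other genes given with values, such as *LHCB4.2*, *KIN1*, *SVP*, *GLN2*, *PRR7*, *NAP* and *RD26*, were chosen after their values were seen. The comparison, members and lists were chosen with earlier results of these data known. Promoters were read from RefSeq TAIR10.1, which has the nuclear chromosomes of TAIR10. The alternatives were other pseudocounts, filters, scalings, fold limits and fits, a replicate block, voom on recovered reads, and leaving out each library.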

Additional observations from a re-analysis of the deposited data

Results flagged for a closer look

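The contrast with WT T6 was the same for both isolates, and in 23 of the 83 named genes its size differed between TM1 T4 and TM2 T4 by limma at an adjusted p under 0.05. The difference was positive, higher in TM1, in 15 of them. The share of all genes by this adjusted p alone is not given here, and many named genes were chosen for the size of their change. Differences below are TM1 minus TM2 on the log2(FPKM + 1) scale, errors are SD over 3 libraries of a pool, and p-values are limma's with Benjamini-Hochberg adjustment over all genes. *ERF53* had a difference of -0.88 (adjusted p = 9.7e-07), with mean FPKM 113 ± 11.7 in TM1 T4, 208 ± 9.69 in TM2 T4 and 10.9 ± 1.61 in WT T6. *ARCK1* had a difference of -0.47 (adjusted p = 0.0201), with mean FPKM 45.5 ± 1.34 in TM1 T4, 63.8 ± 9.18 in TM2 T4 and 6.05 ± 1.13 in WT T6. *SAG21* had a difference of 0.75 (adjusted p = 0.00127), with mean FPKM 261 ± 30.2 in TM1 T4, 155 ± 10.7 in TM2 T4 and 25.8 ± 4.22 in WT T6. *NAC090* had a difference of 1.58 (adjusted p = 2.0e-05), with mean FPKM 19.5 ± 1.5 in TM1 T4, 5.86 ± 0.304 in TM2 T4 and 0.780 ± 0.377 in WT T6. *RD28* had a difference of -1.65 (adjusted p = 8.4e-08), with mean FPKM 14.9 ± 3.0 in TM1 T4, 48.5 ± 3.24 in TM2 T4 and 3.43 ± 0.891 in WT T6. *AT2G20670* had a difference of 1.05 (adjusted p = 1.6e-06), with mean FPKM 20.1 ± 3.47 in TM1 T4, 9.18 ± 1.74 in TM2 T4 and 144 ± 10.6 in WT T6. *AT1G52000* had a difference of -0.91 (adjusted p = 8.6e-05), with mean FPKM 7.53 ± 0.708 in TM1 T4, 15.2 ± 3.09 in TM2 T4 and 78.5 ± 2.05 in WT T6. *AT3G28220* had a difference of -1.31 (adjusted p = 2.3e-05), with mean FPKM 3.64 ± 0.0209 in TM1 T4, 10.6 ± 1.29 in TM2 T4 and 37.8 ± 3.47 in WT T6. *PP2-A13* had a difference of 0.77 (adjusted p = 0.00675), with mean FPKM 7.73 ± 1.85 in TM1 T4, 4.07 ± 0.713 in TM2 T4 and 29.1 ± 3.29 in WT T6. *LHCB2.2* had a difference of 0.54 (adjusted p = 0.0101), with mean FPKM 95.9 ± 10.7 in TM1 T4, 65.3 ± 2.15 in TM2 T4 and 360.2 ± 25.2 in WT T6. *J11* had a difference of 0.83 (adjusted p = 2.3e-04), with mean FPKM 33.5 ± 2.47 in TM1 T4, 18.5 ± 1.51 in TM2 T4 and 113 ± 7.13 in WT T6. *BGLU18* had a difference of -1.45 (adjusted p = 8.3e-09), with mean FPKM 9.11 ± 0.329 in TM1 T4, 26.8 ± 2.85 in TM2 T4 and 72.3 ± 1.88 in WT T6. *COR15B* had a difference of 0.46 (adjusted p = 0.00127), with mean FPKM 495 ± 22.6 in TM1 T4, 361 ± 42.1 in TM2 T4 and 1234 ± 91.6 in WT T6. *LHCB3* had a difference of 0.47 (adjusted p = 2.7e-04), with mean FPKM 529.6 ± 28.5 in TM1 T4, 382 ± 17.2 in TM2 T4 and 1136 ± 45.9 in WT T6. *ELP* had a difference of 0.39 (adjusted p = 0.0405), with mean FPKM 278 ± 11.8 in TM1 T4, 212 ± 13.2 in TM2 T4 and 626 ± 35.2 in WT T6. *ORE1* had a difference of 1.15 (adjusted p = 0.00306), with mean FPKM 7.34 ± 0.688 in TM1 T4, 2.87 ± 1.19 in TM2 T4 and 8.29 ± 0.679 in WT T6. *TEM2* had a difference of 1.15 (adjusted p = 0.00135), with mean FPKM 8.58 ± 0.869 in TM1 T4, 3.40 ± 1.14 in TM2 T4 and 19.7 ± 1.28 in WT T6. *SAG14* had a difference of 0.74 (adjusted p = 6.8e-05), with mean FPKM 140.4 ± 8.29 in TM1 T4, 83.4 ± 4.44 in TM2 T4 and 35.0 ± 5.21 in WT T6. *CLH1* had a difference of -0.58 (adjusted p = 0.00355), with mean FPKM 21.0 ± 5.73 in TM1 T4, 31.3 ± 1.47 in TM2 T4 and 37.9 ± 3.50 in WT T6. *LHCB2.1* had a difference of 0.59 (adjusted p = 3.5e-04), with mean FPKM 62.8 ± 4.96 in TM1 T4, 41.4 ± 1.60 in TM2 T4 and 196 ± 10.6 in WT T6. *EDS1* had a difference of 0.45 (adjusted p = 0.0445), with mean FPKM 38.1 ± 1.46 in TM1 T4, 27.8 ± 4.11 in TM2 T4 and 13.3 ± 1.91 in WT T6. *EXPA10* had a difference of -1.15 (adjusted p = 0.0011), with mean FPKM 5.99 ± 1.65 in TM1 T4, 14.4 ± 2.61 in TM2 T4 and 1.47 ± 0.512 in WT T6. *ARR6* had a difference of 1.15 (adjusted p = 0.0146), with mean FPKM 3.99 ± 1.41 in TM1 T4, 1.31 ± 0.948 in TM2 T4 and 6.08 ± 1.44 in WT T6. With 1 pool per isolate, isolate and pool cannot be told apart.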

How the results depend on the processing

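Of the 22 alternatives, the counts of 372 genes higher and 150 lower in TM T4 moved by over 1.5 times in these. A pseudocount of 5 gave 129 higher and 56 lower, no fold change limit 1478 and 987, and a 1.5-fold limit 935 and 536. The lower count was 311 with limma voom on the recovered reads and 265 with the 6 TM libraries as 1 group, where the higher counts were 487 and 545. Leaving out each of the 9 libraries in turn gave 349 to 375 higher and 136 to 163 lower. A pseudocount of 5 took 19 of the 61 calls among named genes. They included *NAC090*, *FLC*, *MAF4*, *FT*, *SEP1*, *WRKY28*, *FUL*, *DEAR1*, *TEM2* and *TOE3*. The others were *WRKY48*, *WRKY6*, *ASN1*, *EDS1*, *JAZ6*, *EXPA10*, *EXPA5*, *MAM3* and *MYB76*. Quantile normalization took 5, those of *LHCB3*, *RD22*, *DEAR1*, *EDS1* and *EXPA5*. The letters A to C did not pair libraries: deviations of same-letter libraries from their group means correlated between -0.046 and 0.06 over 9 pairs. The replicate block gave 371 higher and 151 lower and took no named call.

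Directions reversed only among named genes that were not past the threshold, and the cause was not tested. Mean log2 fold changes were -0.00 for *ATX1* and 0.03 without ribosomal RNA loci, and -0.03 to 0.05 with a library left out. For *ATX3* they were 0.03, then -0.05, -0.08 and -0.06 with median ratio scaling, quantile normalization and voom, and -0.02 to 0.08 with a library left out. For *FPA* they were 0.01, then -0.07, -0.10 and -0.08 in these settings, and -0.03 to 0.10 with a library left out. For *ANT* they were -0.00 and 0.04 without ribosomal RNA loci, and -0.06 to 0.07 with a library left out. With a library left out, *MED18* (-0.06) ran between -0.27 and 0.28 and *NIT2* (-0.12) between -0.33 and 0.15. Genes with few reads, such as *WRKY75*, *FLC* and *MAF4* in TM T4, limit what these depths can show.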

Other observations

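Some gene families held several genes past the threshold. They were grouped by symbol or annotated product after their values were seen, so they are described without a test. Of 49 WRKY transcription factors 9 rose and none fell, with mean log2 fold changes of 1.18 to 2.24 among those that rose and a median of 0.24 over all 49, against 0.07 over all genes. The called share was 18.4%, against 2.69% of all genes. Of the 9, *WRKY6*, *WRKY28* and *WRKY48* belong to the fixed senescence list and are counted there too. *WRKY40* had 40.4 to 72.3 FPKM in TM T4 and 9.85 to 13.2 in WT T6. *WRKY18* had 28.1 to 49.6 FPKM in TM T4 and 6.08 to 8.54 in WT T6. *WRKY50* had 8.48 to 14.5 FPKM in TM T4 and 1.64 to 2.39 in WT T6. At equal age TM minus WT was 0.52 at T4 and 0.54 at T6 for *WRKY40*, with a WT change of -1.60 between T4 and T6. For *WRKY50* these values were 0.73, 0.69 and -1.29, and for *WRKY18* 1.74, 1.09 and -0.47. WRKY40 and WRKY18 are related factors known from defence. Of 34 glutathione S-transferases, which conjugate glutathione to reactive compounds, 8 rose and none fell, with 1.15 to 2.13 among those that rose and a median of 0.31 over all 34 (23.5% called). *GSTF6* had 74.1 to 103 FPKM in TM T4 and 20.4 to 26.2 in WT T6. *GSTF7* had 79.9 to 97.2 FPKM in TM T4 and 30.7 to 33.8 in WT T6. *GSTU24* had 2.05 to 4.93 FPKM in TM T4 and 0.244 to 1.31 in WT T6. Their equal-age differences at T4 were 1.24, 1.19 and 1.45, with WT changes of -0.64, -0.28 and 0.30. *GSTF6* and *GSTF7* are close copies between which reads may be shared. Of 15 listed genes of the FAD-binding berberine family 5 rose and none fell, with 1.28 to 1.94 among those that rose and a median of 0.28 over all 15 (33.3% called). *AT1G26380* had 2.40 to 4.02 FPKM in TM T4 and 0.116 to 0.476 in WT T6. *AT1G30700* had 3.22 to 5.93 FPKM in TM T4 and 0.140 to 0.823 in WT T6. Their equal-age differences at T4 were 1.3 and 1.67, with WT changes of -0.31 and -0.27. *AT4G20830*, given above among the abundant genes, is 1 of these 5.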
